A study of Drosophila melanogaster with 3 samples.

Results

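The tetraspanin genes examined here were the protein-coding genes whose symbol in the Ensembl annotation is Tsp followed by a digit, a rule that found 34 of the 13945 protein-coding genes on the arms 2L, 2R, 3L, 3R, 4 and X. Of these, 17 belong to the Tsp42E cluster on 2R, named Tsp42Ea to Tsp42Er, and 17 lie elsewhere. The measurements were chromatin immunoprecipitations followed by sequencing (ChIP-seq) of the transcription factor Stripe (gene sr), carried as an eGFP fusion by transgenic flies of the sr-GFP strain. Whole embryos aged 8 to 24 hours were used in 3 libraries labelled as biological replicates 1, 2 and 3, and no other group was present. Per the labels' description the fusion was precipitated with an anti-GFP antibody, whereas the antibody entry reads sr. Because whole embryos were used, a weak peak shared by many cells and a strong peak in few cells cannot be told apart.

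Tetraspanins are small membrane proteins that cross the membrane 4 times and gather integrins, proteases and receptors into patches of the cell surface. In Drosophila, Tsp3A, Tsp26A and Tsp86D bring the metalloprotease Kuzbanian to the membrane, where it cleaves Notch. Tsp2A is a component of the smooth septate junctions that seal the gut. Late bloomer (lbm) is a tetraspanin gene inside the cluster that the symbol rule misses, and it takes part in forming the neuromuscular synapse. Stripe is the zinc finger factor of the EGR family that drives tendon cell fate in the epidermis, where muscles attach through integrins.

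The following 151 bp windows, centred on peak summits, show the kinds of sequence met at these genes. The first pair holds the EGR core, the word recognised by EGR-type zinc fingers (GTGGGCG or GTGGGTG, either strand), and the second pair does not. Letters are those of the forward strand of the Release 6 assembly (dm6) from RefSeq, and lower case does not mark repeats here. Capitals mark the core, which here lies on the reverse strand, so that the printed forward strand reads CGCCCAC or CACCCAC. The Tsp66E window is intronic (chr3L:8929475-8929625), as is that of Tsp96F (chr3R:25880815-25880965). The Tsp5D window lies upstream of the gene (chrX:6074938-6075088), and that of Tsp97E is intronic (chr3R:26963711-26963861).
Tsp66E: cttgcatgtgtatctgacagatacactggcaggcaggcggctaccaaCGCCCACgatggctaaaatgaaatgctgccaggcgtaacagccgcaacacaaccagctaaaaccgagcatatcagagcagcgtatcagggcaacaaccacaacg
Tsp96F: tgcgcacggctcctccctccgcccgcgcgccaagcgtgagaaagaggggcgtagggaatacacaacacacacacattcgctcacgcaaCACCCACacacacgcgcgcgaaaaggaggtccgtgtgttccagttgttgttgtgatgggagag
Tsp5D: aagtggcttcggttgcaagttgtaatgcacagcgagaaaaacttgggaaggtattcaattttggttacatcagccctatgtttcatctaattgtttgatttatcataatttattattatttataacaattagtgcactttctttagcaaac
Tsp97E: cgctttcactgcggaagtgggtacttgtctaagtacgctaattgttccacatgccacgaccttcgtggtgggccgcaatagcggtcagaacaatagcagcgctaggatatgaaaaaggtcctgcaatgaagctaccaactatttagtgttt

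The first question was how many tetraspanin genes carried a Stripe peak. The authors deposited 1 conservative list for the series, with 4041 peaks on the arms, and for each library a ranked list and a thresholded list limited to a global irreproducible discovery rate (IDR) of 0.01. A gene was counted when a peak summit lay in it or within 1000 bp of one of its transcription start sites (TSSs). By this rule 12 of 34 tetraspanin genes had a conservative summit, 35.3% (Wilson 95% interval 21.5 to 52.1, counting error only), against 18.5% of all protein-coding genes. The cluster accounted for 8 of its 17 genes, 47.1% (26.2 to 69), and the members elsewhere for 4 of 17, 23.5% (9.56 to 47.3). The intervals of both groups overlap widely, and that of the members elsewhere includes the share over all genes. By position, summits within 1000 bp of a TSS counted 10 members, 29.4% against 15.2% of all protein-coding genes, and summits in the gene itself counted 4 members, 11.8% against 12.1%. When the conservative list was split at its median signal, its stronger peaks lay at 4 members, 11.8% against 11.3% of all protein-coding genes. Gene length was alike, with a median of 2210 bp in tetraspanin genes and 2170 bp in all protein-coding genes.

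Counts over the single libraries were smaller. Thresholded summits lay at 9 members in replicate 1, 26.5% against 13.8% of all protein-coding genes, at 5 members in replicate 2, 14.7% against 9.6%, and at 9 members in replicate 3, 26.5% against 15.6%. All 3 libraries held a thresholded summit at 5 members, 14.7% (6.45 to 30.1) against 7.85% of all protein-coding genes. These were Tsp42Ea, Tsp42Eh and Tsp42Ei in the cluster and Tsp5D and Tsp66E outside it. At least 1 library held one at 12 members, 35.3% against 18.9%. The ranked lists before the threshold covered most genes. A ranked peak lay at 29 members in replicate 1 (85.3%, against 83.1% of all protein-coding genes), at 25 in replicate 2 (73.5% against 82.9%) and at 29 in replicate 3 (85.3% against 85.5%). In total, 23 members had a ranked peak in all 3 libraries, 67.6% against 71.6% of all protein-coding genes. The ranked shares of members thus lay on either side of those of all genes. In the 6 sets plotted, which leave out the ranked lists, the tetraspanin bars stand above the grey bars. Each interval there, except that of the cluster in the conservative list, includes the grey bar's value. That interval treats genes as independent, whereas the 8 cluster genes counted there rested on 6 summits, so it is too narrow.

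**Figure D1:**
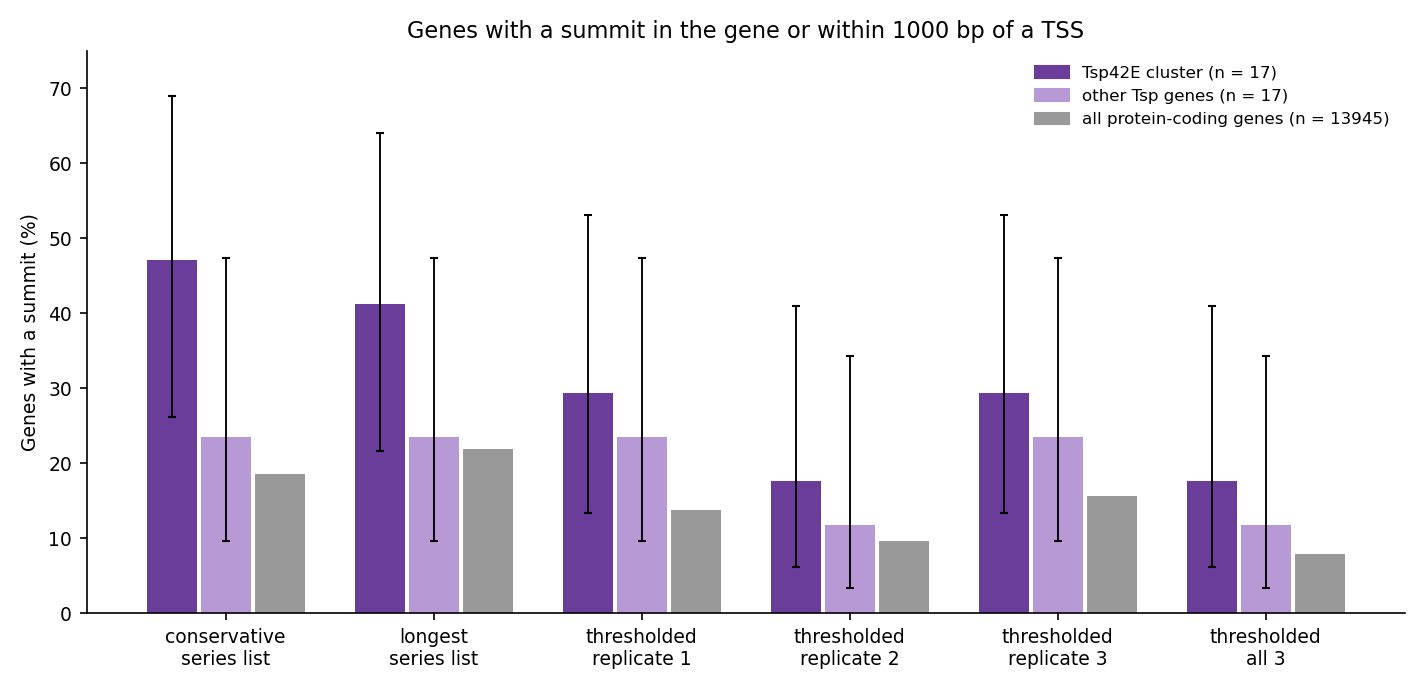
Share of genes (%) with a peak summit in the gene or within 1000 bp of a TSS, for the 17 Tsp42E cluster genes, the 17 other Tsp genes and all 13945 protein-coding genes, in the conservative and longest series lists and the thresholded lists of the libraries; error bars are Wilson 95% intervals. In the conservative list the shares were 47.1%, 23.5% and 18.5%.

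The 12 genes of the conservative list rested on 10 summits, because a summit between neighbours counts for both. Of the 10 summits, 5 lay at 2 or more protein-coding genes (50%), against 21.7% of the 3536 conservative summits that lay at 1 or more protein-coding genes by the same rule. The summit in the Tsp42En intron also fell 890 bp upstream of Tsp42Eo, and 1 summit served the divergent pair Tsp42Eq and Tsp42Er. The nearest TSS belonged to a tetraspanin gene at 8 summits and to another gene at 2, which were Kdm5 beside Tsp26A and Seipin beside Tsp3A. The counting rule itself favours summits near start sites, so their distances were set beside those of the same 3536 summits. The median distance to the nearest TSS was 152 bp at members against 722 bp, and 8 of 10 member summits were within 500 bp (80%) against 43.2%. Gene length was not matched in this comparison, and whether it bears on these distances was not tested. The median length was 2210 bp in members and 2170 bp in all protein-coding genes, and the longest genes had 19567 bp and 1965857 bp. The median series signal of the member summits, 108, was near the 115 of all conservative summits. The signal is the authors' value for a peak, of unstated normalization, and ranks peaks only within 1 list.

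The cluster is a run of 17 member genes over 73.4 kb (2R 6992676 to 7066113), with 14 on the forward strand and 7 other protein-coding genes, lbm included, among them. It held 7 conservative summits, 6 at members and 1 at lbm, which is 0.953 per 10 kb against 0.336 on 2R as a whole. In the thresholded lists the densities were 0.953 against 0.238 in replicate 1, 0.409 against 0.144 in replicate 2 and 0.817 against 0.238 in replicate 3. Members held 4 of the 7 summits in replicate 1, 3 of 3 in replicate 2 and 5 of 6 in replicate 3. The density of ranked peaks before the threshold was 7.76, 5.58 and 7.22 per 10 kb in replicates 1, 2 and 3, against 6.43, 6.79 and 6.6 on 2R. Densities per 10 kb take no account of how closely genes are spaced, and the cluster holds 17 members and 7 other protein-coding genes in 73.4 kb. Whether gene spacing bears on the density of summits was not tested. The 6 member summits were unevenly spaced, with gaps of 1654 bp between Tsp42Eh and Tsp42Ei and 40577 bp between Tsp42Ea and Tsp42Eh. Within that long gap lie Tsp42Eb, Tsp42Ec, Tsp42Ed, Tsp42Ee, Tsp42Ef and Tsp42Eg, none of which had a conservative summit, as the map of the cluster shows.

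**Figure D2:**
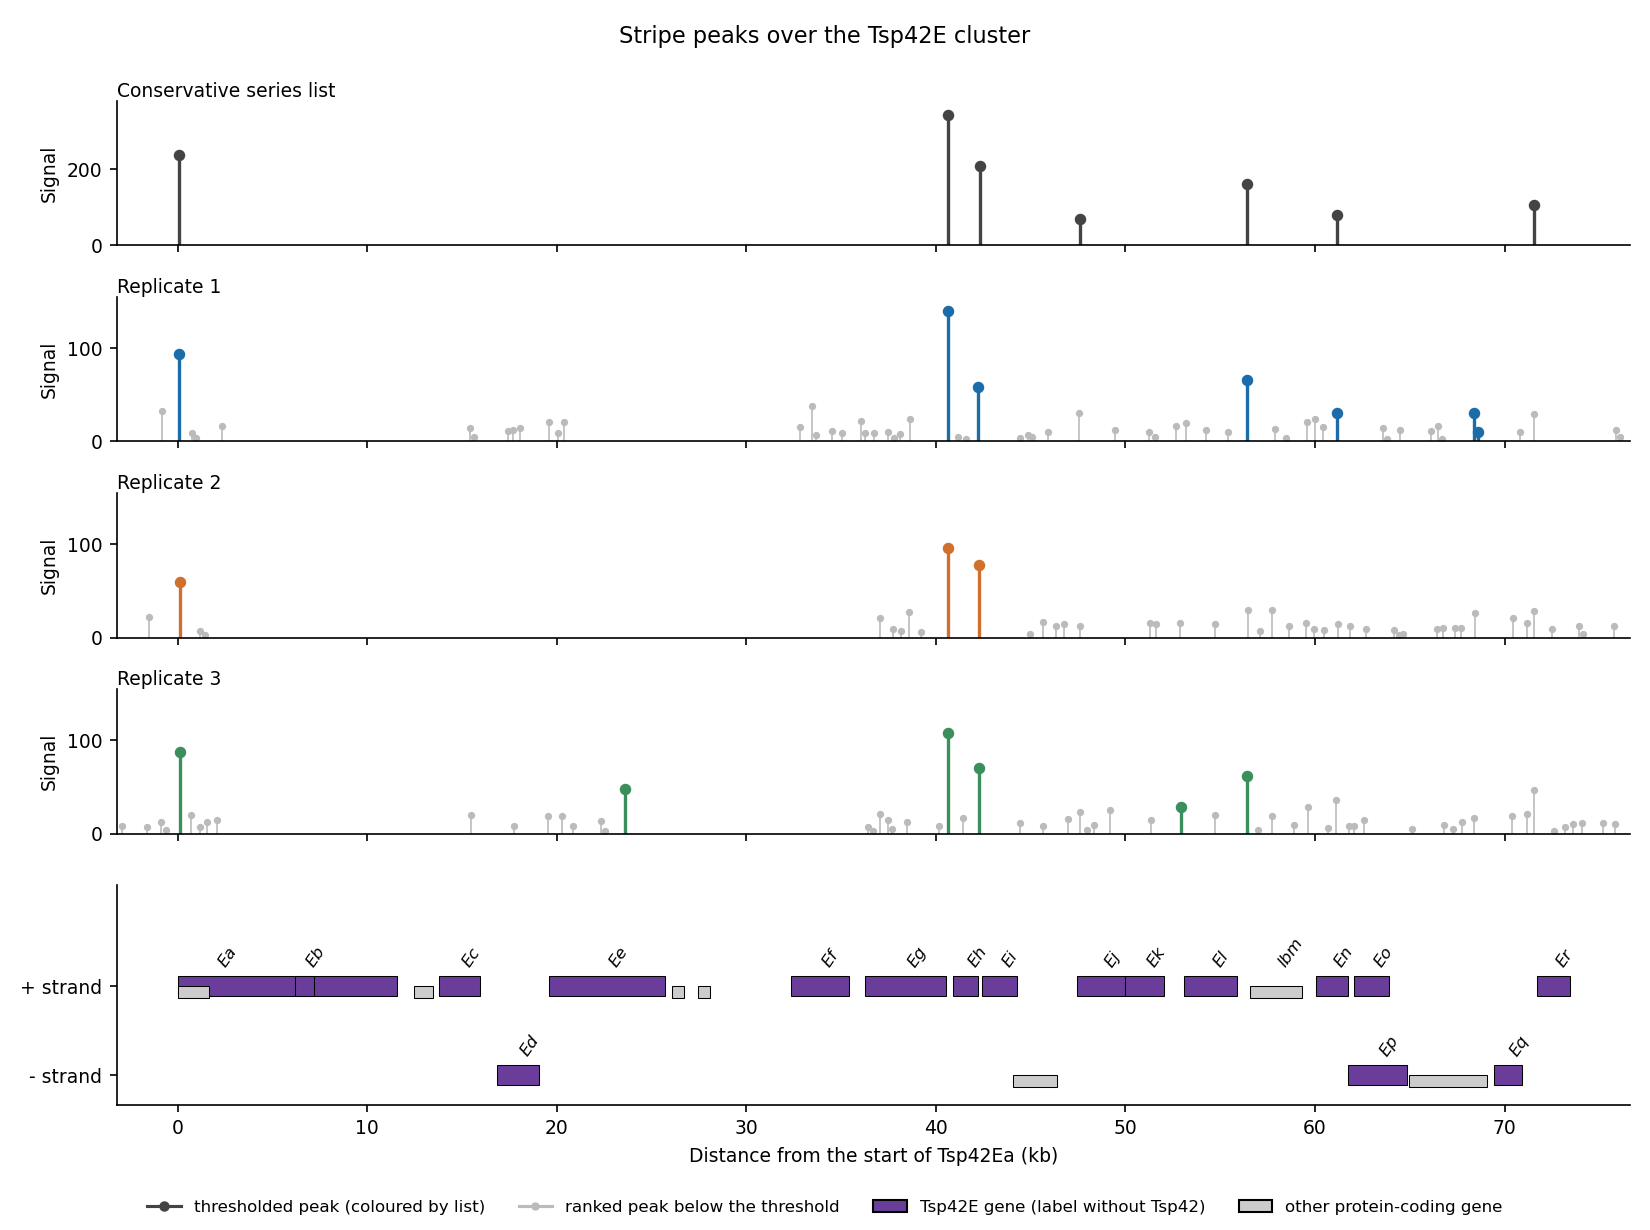
Peak signal (authors' value) by distance from the start of Tsp42Ea (kb) in the conservative list and in each library, with the genes of both strands below; coloured stems are thresholded peaks and grey stems ranked peaks below the threshold. The stems at Tsp42Ea, Tsp42Eh and Tsp42Ei are coloured in all 3 libraries, with mean signals of 80.4, 114 and 68.9.

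Tsp42Eh had the strongest peak of the family in each library. Its signals were 140, 95.6 and 108 in replicates 1, 2 and 3 (114 ± 23, SD, n = 3), and its rank in the conservative list was 217 of 4041. The summit (2R 7033324) was intergenic, 238 bp upstream of the Tsp42Eh TSS, and the summits of the 3 libraries fell within 15 bp of each other. A core GTGGGCG lay 9 bp from it.

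The next peak of the cluster downstream belonged to Tsp42Ei. Its signals were 58.6, 78 and 70.2 in replicates 1, 2 and 3 (68.9 ± 9.77), and its summit (2R 7034978) lay 147 bp upstream of the TSS with a core GTGGGCG 27 bp away. Replicate 2 was the highest here, also by percentile in the ranked lists (98.6, 99.6 and 98.8). The summit of replicate 1 (7034906) fell just inside the end of Tsp42Eh, so that Tsp42Eh counted 2 thresholded summits in that library.

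Tsp42Ea, at the start of the cluster, gave 94.1, 59.1 and 88.1 in replicates 1, 2 and 3 (80.4 ± 18.7). The summit (2R 6992747) was in the 5′ UTR that it shares with CG30159, 66 bp downstream of the start sites of both. This window held no EGR core and 3 copies of GAGAG, the word bound by GAGA factor. Tsp42Eh ranked above Tsp42Ea in all 3 libraries, whereas the order of Tsp42Ea and Tsp42Ei differed between replicate 2 and the other libraries.

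The other 3 member summits of the cluster were weaker and passed the threshold in at most 1 library. The Tsp42Eq and Tsp42Er summit (2R 7064237), 668 bp and 162 bp upstream of these genes, gave 29.3, 29 and 46.3 (34.9 ± 9.92). Its signals stood at percentiles 94.6, 96.9 and 97.4 of the ranked lists, yet its global IDR was 0.0186, 0.386 and 0.789, above the limit in each library. The summit in the Tsp42En intron (2R 7053827) gave 30.7, 14.1 and 35.8 (26.9 ± 11.3) and passed in replicate 1 only.

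Tsp42Ej, also called sunglasses, encodes a lysosomal tetraspanin that takes part in rhodopsin turnover in the eye. Its summit in the 5′ UTR (2R 7040256), 120 bp downstream of the TSS, gave 30.5, 12.8 and 23.4 (22.2 ± 8.89). It held a core GTGGGTG 47 bp away but passed the threshold in no library, and it was absent from the longest series list. Thus 2 of the 6 cluster summits had no thresholded peak in any library (33.3%), against 23.6% of all conservative summits.

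The remaining 9 cluster genes had no conservative summit. Among them Tsp42Ee had a thresholded intronic peak in replicate 3 alone, with a signal of 47.9 and no ranked peak within 200 bp in replicates 1 and 2. Tsp42El had one in replicate 3, with a signal of 28.7 at 179 bp upstream of the TSS, against 15.3 in replicate 2 and no ranked peak within 200 bp in replicate 1, where the best peak of the gene had 20.3. Tsp42Ec, Tsp42Ed, Tsp42Ef, Tsp42Eg, Tsp42Ek and Tsp42Ep had ranked peaks only. Of these, Tsp42Ef had the highest single value, 38.2 in replicate 1, with none in replicates 2 and 3. Tsp42Eb, the shortest member at 1001 bp and nested in Tsp42Ea, had no ranked peak in any library.

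Outside the cluster, Tsp5D had signals of 44.4, 50.9 and 80.2 in replicates 1, 2 and 3 (58.5 ± 19.1) and was thresholded in all 3. Its summit (X 6075013) was intergenic, 156 bp upstream of the TSS, in the window printed above, which holds no core. Its percentiles in the ranked lists were 97.5, 98.9 and 99.1.

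Tsp3A, one of the Kuzbanian-binding tetraspanins, gave 47.8, 18 and 35.7 (33.9 ± 15) and passed the threshold in replicates 1 and 3. Its summit (X 2619910) was 172 bp upstream of the Tsp3A TSS and in the 5′ UTR of Seipin, a gene of lipid droplet formation whose TSS was 111 bp away.

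Tsp26A and Tsp97E had the lowest series signals of the 10 conservative summits. At Tsp26A the signals were 28.2, 2.64 and 30.1 (20.3 ± 15.3), and the value of replicate 2 stood at percentile 2.02 of its ranked list. That summit (2L 5999489) was 12 bp from the TSS of Kdm5, which encodes a histone demethylase, and 739 bp upstream of Tsp26A. At Tsp97E the signals were 24.7, 12.7 and 33.1 (23.5 ± 10.2) at an intronic summit (3R 26963786), 1031 bp downstream of the TSS. Neither passed the threshold in any library, and their ranks in the conservative list were 3693 and 3861 of 4041.

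**Figure D3:**
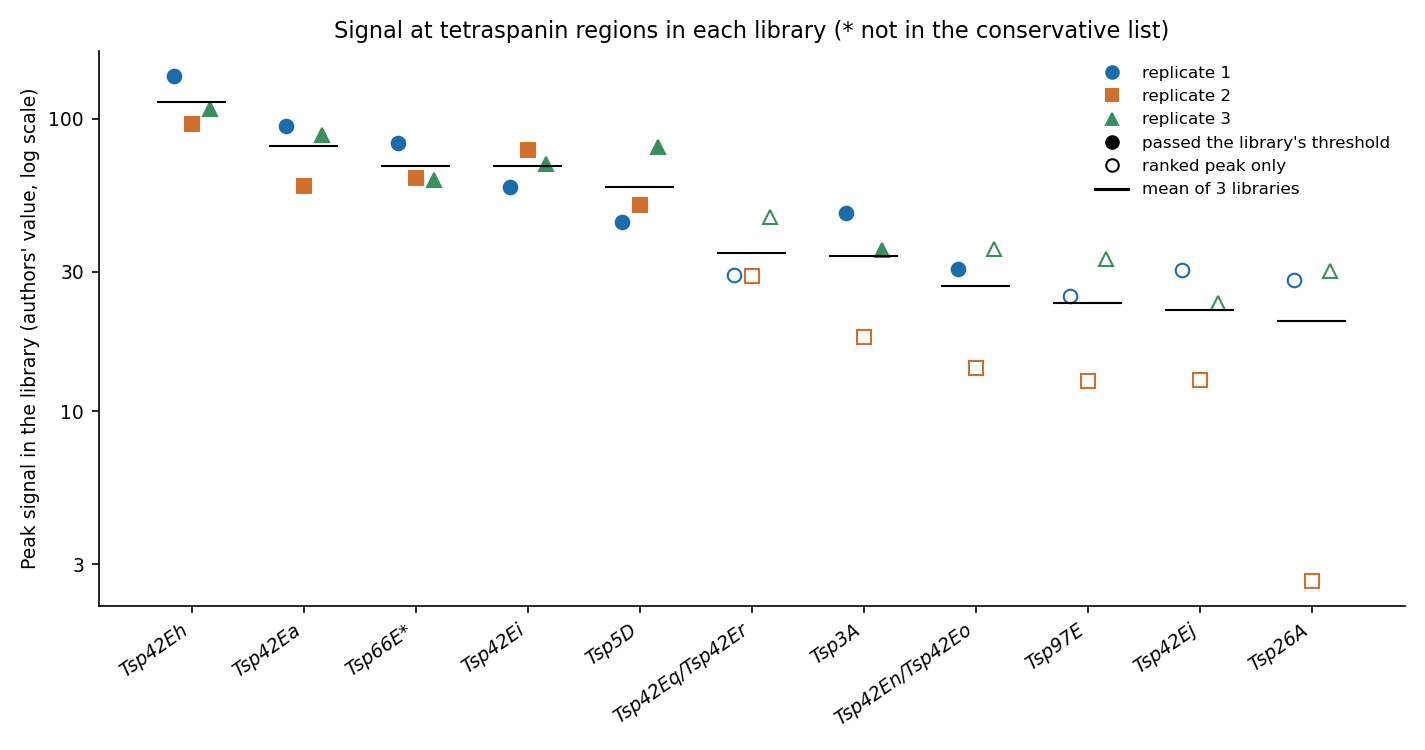
Peak signal (authors' value, log scale) at each tetraspanin region in replicates 1, 2 and 3; filled symbols passed the library's threshold, open symbols are ranked peaks below it, and bars are means of 3 libraries. The 5 regions on the left, from Tsp42Eh to Tsp5D, have filled symbols in all 3 libraries and means from 114 to 58.5, while replicate 2 is lowest at most of those on the right.

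Among the 10 conservative regions and the Tsp66E intron, the order of signals was similar in the libraries. Tsp42Eh, Tsp42Ea, Tsp66E, Tsp42Ei and Tsp5D lay above the other regions in replicates 2 and 3, and in replicate 1 Tsp3A, at 47.8, stood above Tsp5D. The ranges of Tsp42Ea, Tsp66E, Tsp42Ei and Tsp5D over the 3 libraries overlapped one another and their order differed between libraries, whereas Tsp42Eh came first in each.

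Tsp66E had a peak in its large intron that all 3 libraries placed above the threshold and the conservative list did not contain. Its signals were 82.5, 62.6 and 61.8 in replicates 1, 2 and 3 (69 ± 11.7), with a global IDR of 2.7e-05, 0.000302 and 7.24e-05. The 3 summits fell within 18 bp of each other around 3L 8929550, 17008 bp downstream of the nearest Tsp66E TSS. A core GTGGGCG on the reverse strand lay 25 bp away, shown in capitals above. The TSS nearest to it was that of CG43783, 7263 bp away. The mean signal of the Tsp66E intron peak was close to that of Tsp42Ei, 68.9. Tsp42Ei ranked 674 of 4041 in the conservative list, in which the Tsp66E intron peak has no rank.

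None of the 4 ranked lists of the series held a summit within 200 bp of this Tsp66E peak, and the nearest in each were 495 to 909 bp away. Such an absence was rare: of 1180 regions with a thresholded summit from all 3 libraries, 4 (0.339%) had no conservative summit and 3 (0.254%) had none in any series ranked list. The peak was narrow in replicates 1 and 3, at 115 and 70 bp against median widths of 270 and 264 bp, and 250 bp wide in replicate 2. Peaks under 120 bp made up 7.92% of the thresholded list in replicate 1 and 9.08% in replicate 3. Tsp42Ea and Tsp5D, which are in the conservative list, also had narrow peaks in replicate 3, of 75 and 89 bp. In replicate 1 both were 270 bp wide. Whether the width bears on the absence from the series lists was not tested.

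The pair of read sets compared for the conservative list did not match the 3 libraries equally. All 4041 of its peaks were found, at a global IDR of 0.01 or less, in 1 of the 4 series ranked lists. That list gives the positions of peaks in a pair of read sets. The peaks of the first set had the arm, start and end of ranked peaks of replicate 1 for 68.6%, and those of the second had those of replicate 3 for 67.5%, while 0% of either had those of replicate 2. This concerns the compared positions only. Whether reads of replicate 2 enter the list's own peaks and signals was not tested. Of the 10 conservative summits at members, replicate 2 passed the threshold at 4, which were those of Tsp42Eh, Tsp42Ea, Tsp42Ei and Tsp5D.

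A different Tsp66E peak appeared in 2 of the 4 thresholded lists of the series, the longest among them, and not in the conservative list. Its summit (3L 8912619), in the 5′ UTR and 77 bp downstream of a Tsp66E TSS, was 35 bp from the TSS of mfr, a ferlin gene. The signals were 35.1, 29.5 and 17.3 (27.3 ± 9.12), below the threshold in each library. The longest list held 11 members in all, 32.4% against 21.9% of all protein-coding genes.

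Library summits were matched only within 200 bp of the conservative summit, which limits how far apart they can lie. Summits of the 3 libraries spread over 15 bp at Tsp42Eh, 29 bp at Tsp5D, 30 bp at Tsp42Eq and Tsp42Er, 59 bp at Tsp42Ea and 65 bp at Tsp42Ei. The widest spreads were 137 bp at Tsp26A and 188 bp at Tsp97E, the regions with the lowest series signals.

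**Figure D4:**
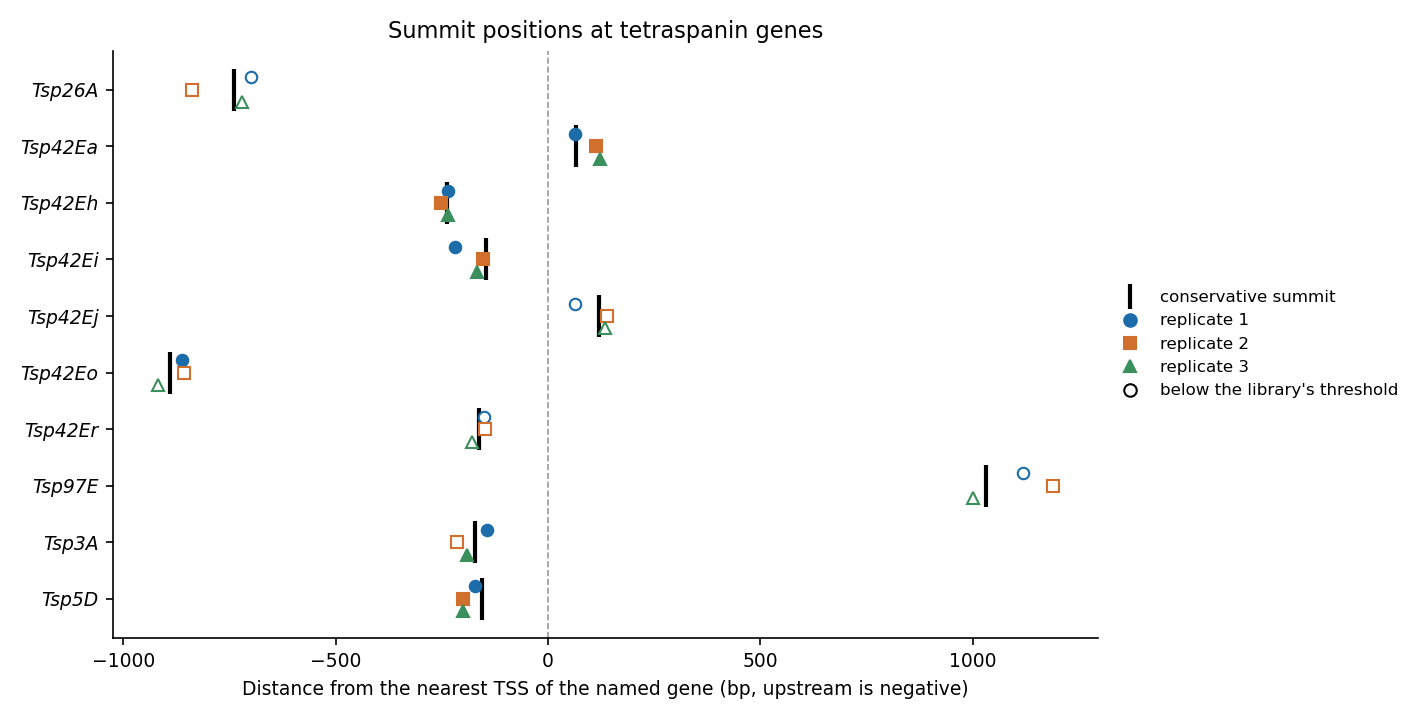
Distance (bp, upstream negative) of the conservative summit and of each library's summit from the nearest TSS of the named gene; open symbols are below the library's threshold. The conservative summits of 5 genes lie from 147 to 238 bp upstream of the TSS, and the library summits spread from 15 bp at Tsp42Eh to 188 bp at Tsp97E.

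The second question was which sequence lay under these summits. An EGR core within 100 bp of the summit was present at 3 of 10 conservative summits at members, 30% (10.8 to 60.3), against 37.7% (36.2 to 39.2) of all 4041. The 3 were in the cluster, at Tsp42Eh, Tsp42Ei and Tsp42Ej, and made 50% (18.8 to 81.2) of its 6 summits. In windows 1000 bp to the left, the share was 0% at members and 7.62% over all conservative summits. GAGAG lay within the same windows at 4 of 10 member summits, 40%, against 35.1%. Of the 8 member summits within 500 bp of a TSS, 3 held the core (37.5%), against 26.7% of all conservative summits that close to a TSS. These core shares at members rest on few summits, and their intervals include the shares over all summits. A match is only the presence of these letters in the window.

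Of the 5 regions thresholded in all 3 libraries, Tsp42Eh, Tsp42Ei and Tsp66E held the core and Tsp42Ea and Tsp5D did not. The 2 strongest means, of Tsp42Eh and Tsp42Ea, were thus 1 region with a core and 1 without.

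The other members had thresholded peaks in 1 library or none. Tsp96F had an intronic peak in replicate 1 (3R 25880890) with a signal of 46.7, no ranked peak within 200 bp in replicate 2 and 25.6 in replicate 3. It held the core GTGGGTG 16 bp from the summit, on the reverse strand. In the assembly, 44.3% of the letters within 100 bp of this summit are marked as repeats. Tsp29Fb had a peak in replicate 3 at 37.7, 131 bp upstream of the TSS (2L 8937259), against 21.1 in replicate 1 and 15.5 in replicate 2. These peaks lay below most of those shared by the 3 libraries.

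The remaining members had ranked peaks only or none. Tsp86D, which like Tsp3A works with Kuzbanian, had best signals of 28, 11.6 and 18.4 in replicates 1, 2 and 3. At Tsp2A they were 8.66, 10.4 and 12, among the lowest of the family. Tsp29Fa reached 38.7 in replicate 3 with a global IDR of 0.0295, against 17.7 in replicate 1 and no peak in replicate 2. Tsp74F had 26.4 and 27.3 in replicates 1 and 3, and none in replicate 2. At Tsp47F the best signals were 23, 8.12 and 15.5, and at Tsp66A they were 5.47, 10.7 and 7.8.

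Tsp33B and Tsp68C had ranked peaks in replicate 2 alone, with best signals of 11.8 and 13.8, and Tsp42A in replicate 3 alone, with 13.2. Tsp39D, with 13665 bp among the longest members, and Tsp42Eb had none in any library, which is 2 of 34, 5.88%, against 6.63% of all protein-coding genes. The median best signal of members with a ranked peak was 28 against 19.1 over all genes in replicate 1, 15.4 against 17 in replicate 2 and 33.1 against 19 in replicate 3. Replicate 2 thus ran the other way from replicates 1 and 3 in this summary.

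**Figure D5:**
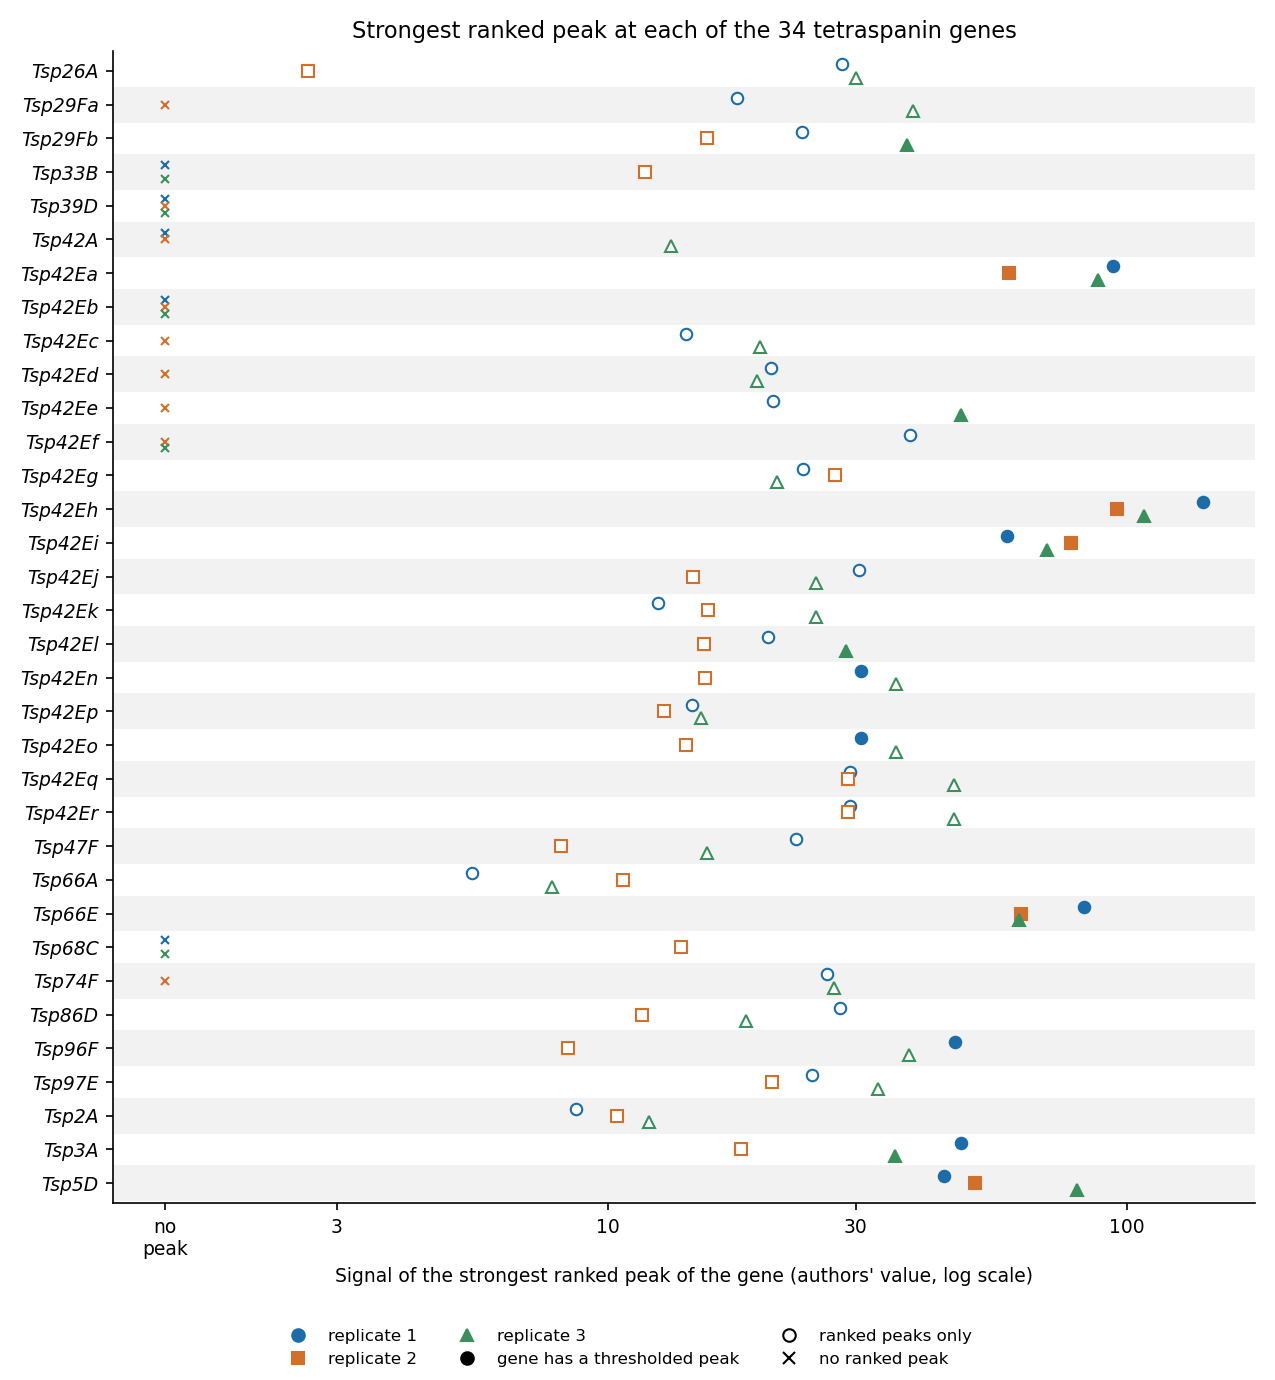
Signal (authors' value, log scale) of the strongest ranked peak at each of the 34 tetraspanin genes in replicates 1, 2 and 3; filled symbols mark genes with a thresholded peak in that library and crosses genes with no ranked peak. Tsp42Eh is farthest right in all 3 libraries (140, 95.6 and 108), and Tsp39D and Tsp42Eb have crosses only.

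The third question was whether lbm and genes whose products work with tetraspanins carried peaks. A list of 13 genes was read, in which lbm is itself a tetraspanin gene rather than a partner. Of these, 6 had a conservative summit (46.2%), lbm among them, against 18.5% of all protein-coding genes. Their median length was 8590 bp against 2170 bp over all protein-coding genes, so the searched windows were longer. A thresholded summit in all 3 libraries lay at 3 of the 13, against 7.85% of all protein-coding genes. At lbm the summit (2R 7049088) gave 66.4, 29.6 and 62.3 (52.7 ± 20.2), a mean below those of Tsp42Ea, Tsp42Eh and Tsp42Ei and above those of the other member summits of the cluster, and it passed the threshold in replicates 1 and 3.

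Integrins, the adhesion receptors of muscle attachment, made up most of the rest. The alpha subunit gene if (inflated) had 4 conservative summits, the strongest (X 16767017) with 256, 147 and 190 (198 ± 54.7), above Tsp42Eh in each library. The alpha subunit gene mew had 4, with 52.2, 38.1 and 63.1 (51.1 ± 12.6) at the strongest. The beta subunit gene mys had 1, with 33.3, 11 and 27.4 (23.9 ± 11.5), and the alpha subunit gene scb 1, with 30.2 and 23.8 in replicates 1 and 2 and no ranked peak within 200 bp in replicate 3. ItgaPS4, ItgaPS5 and Itgbn had none. Thresholded summits lay at mys in replicate 3 only and at scb in replicate 1 only.

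In the Notch pathway, the receptor gene N had 2 conservative summits, the strongest with 41, 42.9 and 76.1 (53.3 ± 19.8). The protease gene kuz had no conservative summit, but 2 thresholded summits in replicate 1 and 1 in replicate 3. The genes Ssk, mesh and hoka, whose products form smooth septate junctions with Tsp2A, had no conservative or thresholded summit, and neither had Tsp2A. The gene sr itself, 44781 bp long, held 16 conservative summits, the strongest with 219, 239 and 267 (241 ± 24.3). These summits do not show which protein was precipitated. Whether the fusion transgene bears on the signal at sr was not tested.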

How the data were processed

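Sonicated chromatin had a size range of 200 to 800 bp, per the labels. The authors deposited ranked and thresholded peak lists on dm6, and per the deposited text notes each library was set against 1 control file, which was not analysed here. Neither aligner nor caller is named in any source used here. The deposited signal of a peak has no stated normalization. The deposited score column was taken as a rescaled IDR and was not used, and the deposited −log10 q-value column was not used beyond its unit check. The global IDR was taken from its deposited −log10 value. Read totals are not given, so sequencing depth is unknown.

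Summits were assigned with Ensembl release 115 on the same assembly, whose arms contain all peak ends. A library's value for a region is its strongest ranked peak with a summit within 200 bp, and a region shared by libraries joins summits widened by 100 bp. Motifs were searched within 100 bp of a summit on both strands. No tests were made, since only 1 group exists. The 8 signal columns of single read sets in the series ranked lists, which name no library, were not used. The assignment was tested on simulated data. Python 3.11.15, numpy 2.4.6, scipy 1.17.1 and matplotlib 3.10.9 were used.

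Named were all members with a conservative summit, all cluster members, the other members by their best ranked peaks, neighbours with the nearest TSS and partner genes with a peak. The members and lists were chosen with earlier results of these data known. In the partner list the symbol sun denotes another gene in the annotation and was left out, since sunglasses is Tsp42Ej. Alternatives covered the distance to a TSS, the list, the threshold, the motif window and each left-out replicate.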

Additional observations from a re-analysis of the deposited data

How the results depend on the processing

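The 12 members with a conservative summit (35.3%, against 18.5% of all protein-coding genes) became 4 when only summits inside the gene counted (11.8% against 12.1%). They also became 4 when only the peaks above the median signal of the conservative list were used (11.8% against 11.3%), and that split left 4 of the 10 conservative summits at members. Under the other rules and lists the members numbered 9 (26.5%, against 16.8% within 500 bp of a TSS and 17.2% by the nearest TSS) to 14 (41.2%, against 19.1% by overlap of the peak). The 5 members thresholded in all libraries numbered 5 to 6 with 1 replicate left out (14.7% to 17.6%, against 8.33% to 11%). At a global IDR of 0.001 there were 4 (11.8% against 5.34%) and at 0.05 there were 5 (14.7% against 10.4%). The share of member summits with the EGR core ranged from 22.2% (2 of 9, longest series list) to 30% (3 of 10). Shares over all summits under these alternatives are not given, so the range has no background beside it. No paired analysis was possible because only 1 group exists. Genes that share a summit are not independent, 10 summits give little precision, and depth is unknown.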

Other observations

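Apart from the Tsp66E intron, 2 regions with thresholded summits from all 3 libraries had no summit within 200 bp in any ranked list of the series. One lay in an intron of zfh2, which encodes a large zinc finger homeodomain protein (4 502942), 1132 bp from the TSS, with signals of 86.8, 79.8 and 88.8 in replicates 1, 2 and 3 (85.1 ± 4.75, SD, n = 3). The other was intergenic, 1445 bp from the TSS of ben, a ubiquitin-conjugating enzyme gene (X 13994900), with signals of 37.2, 45.3 and 44.7 (42.4 ± 4.5). The zfh2 peak was 68, 250 and 85 bp wide in replicates 1, 2 and 3, whereas the ben peak was 270, 250 and 264 bp wide.

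Within the cluster, Pgant3, which encodes an enzyme that adds sugar chains to secreted proteins, had 2 thresholded summits in replicate 1 and none in replicates 2 and 3, with signals of 31 and 10.1. The conservative list held none there.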
